A study of Caenorhabditis elegans with 12 samples.

Results

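The comparison described here sets worms labelled hda-1+atp-2 RNAi directly against worms given dve-1+atp-2 RNAi, so that both sides had the RNAi that stresses mitochondria. Whether the stress was equal on both sides was not tested. It was chosen by the groups' labels and takes 4 of the 12 libraries, 2 per group, and 2 of the 6 groups. The libraries hold mRNA of whole Caenorhabditis elegans on day 1 of adulthood, kept at 20 °C. Per the labels the strain was glp-4(bn2), a temperature-sensitive mutant with a limited germ line, whereas the study's text on this sequencing calls its control animals wild type. Worms ate bacteria making double-stranded RNA for one of these genes, and per the labels the atp-2 bacteria followed after 30 h, while the methods paragraph on mRNA sequencing gives another timing. Another group with atp-2 RNAi had the empty vector L4440 in place of either clone, and it is given last for each named gene to show which side departs from it. The groups without atp-2 RNAi (hda-1, dve-1 and L4440 alone) give the same comparison from other libraries.

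The product of hda-1 is a histone deacetylase of class I, an enzyme that takes acetyl groups off histones and works in repressor complexes such as NuRD. dve-1 encodes a homeodomain protein related to SATB proteins, which bind and organise chromatin. Both are known as factors of the mitochondrial unfolded protein response (UPRmt), in which nuclear genes for mitochondrial chaperones and proteases are switched on when mitochondria fail. atp-2 codes for the ATP synthase beta subunit in mitochondria, and its RNAi is a common way to set off this response. Setting one knockdown against the other asks where the transcriptomes of the pair part company under stress.

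Levels are FPKM, that is, sequenced fragments per kilobase of a gene's transcript, divided by the depth of the sample. Each group has 1 value, into which the authors combined both libraries. There is thus no replicate spread, no test and no error for any difference below, and every count describes the size of differences in these columns. Ratios are log2 of (FPKM + 1) labelled hda-1+atp-2 over (FPKM + 1) dve-1+atp-2, so a positive value means higher in the column labelled hda-1+atp-2. A gene was called when the ratio was 2-fold or more and the higher column had an FPKM of at least 5. FPKM summed to 945279.7 labelled hda-1+atp-2, 975652 in dve-1+atp-2 and 926778 in L4440+atp-2. By the steps between low values, an FPKM of 5 on 1 kb stands for 88.4, 94.0 and 88.6 fragments in these columns, taking the columns in the same order, an estimate that covers counting error only.

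The targeted genes were read first. hda-1 had an FPKM of 811 in the column labelled hda-1+atp-2, 25.1 in dve-1+atp-2 and 21.0 in L4440+atp-2, so the target went against its label, with a log2 ratio of 4.96. The feeding clone itself carries hda-1 sequence, and whether its RNA was read as hda-1 was not tested, so whether hda-1 mRNA was reduced cannot be read here and the group is named by its label throughout. dve-1 had 25.0 in the column labelled hda-1+atp-2, 14.3 in dve-1+atp-2 and 19.6 in L4440+atp-2. atp-2 had 554 in the column labelled hda-1+atp-2, 423 in dve-1+atp-2 and 598 in L4440+atp-2. Without atp-2 RNAi it had 861 labelled hda-1, 1090.1 in dve-1 RNAi and 1094 in L4440. Whether RNA of the atp-2 clone was read as atp-2 was not tested either. The 19 kept partners of HDA-1 in the NuRD, MEC and SIN3 complexes included no called gene and spanned log2 ratios of -0.41 to 0.42.

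Of 46245 listed genes, 13337 had a mean FPKM of 1 or more over the 6 columns and were kept. Among them 934 (7.00%) were called higher and 808 (6.06%) lower in the column labelled hda-1+atp-2 than in dve-1+atp-2, around a median log2 ratio of 0.02. The lower group reached further, with 455 genes past 4-fold and 120 past 16-fold, against 364 and 49 of the higher group. Near the limit, 45 genes called higher and 31 called lower lay within a log2 of 1 to 1.05, and 55 and 42 genes fell just short, at 0.95 to 1. Of the called genes, 868 higher and 758 lower were protein-coding. Chromosome V held 294 of the genes called higher, 11.2% of its kept genes, whereas chromosome I held 71, which is 3.29%. For genes called lower the highest share was on chromosome IV, with 196 genes or 8.75%, and the lowest on chromosome III, with 83 genes or 3.93%.

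**Figure D1:**
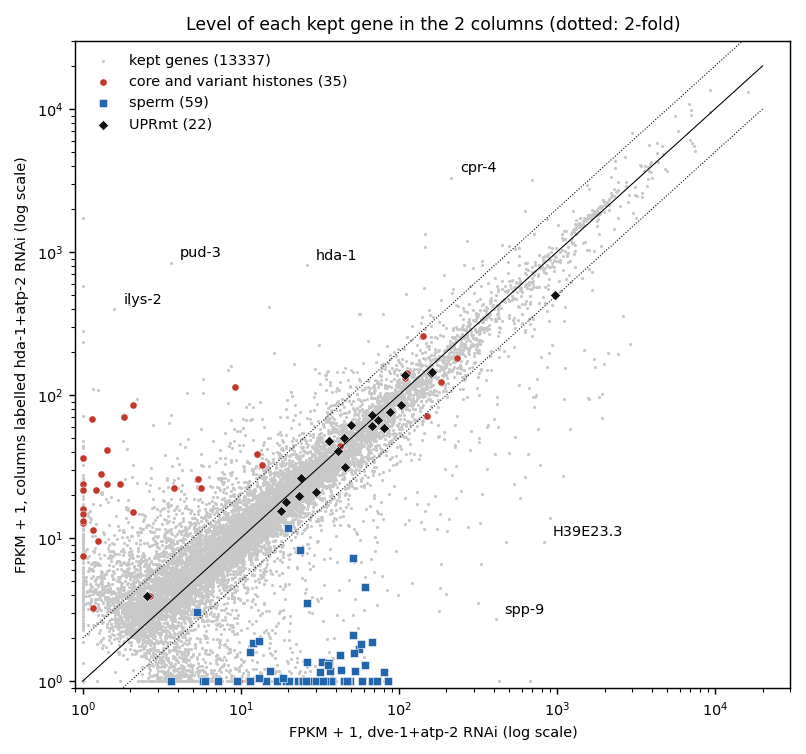
FPKM + 1 of each of the 13337 kept genes, dve-1+atp-2 RNAi on the horizontal axis and the column labelled hda-1+atp-2 RNAi on the vertical axis, both on log scales with 1 pooled value per gene and column. The solid line marks equal levels and the dotted lines 2-fold. The 35 kept core and variant histone genes (circles) lie mostly above the band, the 59 kept sperm genes (squares) all below the solid line, and the 22 UPRmt genes (diamonds) between the dotted lines.

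Placing each called gene against L4440+atp-2 showed which side departed from it by 2-fold or more. Of the genes called higher, 612 (65.5%) departed in the column labelled hda-1+atp-2 alone, 104 (11.1%) in dve-1+atp-2 alone and 35 in both, in opposite ways. Of the genes called lower, 317 (39.2%) departed in the column labelled hda-1+atp-2 alone, 180 (22.3%) in dve-1+atp-2 alone and 146 (18.1%) in both, in opposite ways. The remaining genes departed the same way on both sides (55 higher, 62 lower) or by less than 2-fold on either (128 higher, 103 lower). Over all kept genes the median absolute log2 ratio to L4440+atp-2 was 0.38 for the column labelled hda-1+atp-2 and 0.24 for dve-1+atp-2. Both figures use the same L4440+atp-2 column.

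The largest ratios in the higher direction belonged to 4 lysozymes, 2 pud genes and 7 histones among the leading 20, beside hda-1 itself. Ranking was limited to protein-coding genes with at least 300 nt of exon, of which 837 (6.67%) were called higher and 714 (5.69%) lower. ilys-2, an invertebrate-type lysozyme of the kind that digests bacterial cell walls, had an FPKM of 396 in the column labelled hda-1+atp-2, 0.580 in dve-1+atp-2 and 0.283 in L4440+atp-2, a log2 ratio of 7.97. Its neighbour ilys-3 on chromosome IV, 2234 bases away, had 25.5 labelled hda-1+atp-2 and was listed at 0 in dve-1+atp-2 and in L4440+atp-2. lys-10, a lysozyme of another family, had 107 in the column labelled hda-1+atp-2, 0.246 in dve-1+atp-2 and 0.258 in L4440+atp-2, and lys-3 of that family had 41.2 in the column labelled hda-1+atp-2, 0.917 in dve-1+atp-2 and 1.63 in L4440+atp-2. All 4 lysozymes stood out in the column labelled hda-1+atp-2 alone.

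pud-3 and pud-4, genes named for proteins that are abundant in daf-2 insulin receptor mutants, lie 1525 bases apart on chromosome V (ce11, V:2324634-2325152 and V:2326678-2327282). pud-3 had an FPKM of 843 in the column labelled hda-1+atp-2, 2.62 in dve-1+atp-2 and 1.53 in L4440+atp-2. For pud-4 the values were 431 in the column labelled hda-1+atp-2, 0.965 in dve-1+atp-2 and 0.198 in L4440+atp-2. C17G1.1, listed in the annotation as the folate receptor homologue folr-1, had 109 in the column labelled hda-1+atp-2, 0.164 in dve-1+atp-2 and 0.0717 in L4440+atp-2. These genes were near 0 on the dve-1 side and in L4440 alike and abundant in the column labelled hda-1+atp-2. asm-3, an acid sphingomyelinase, had 46.8 in the column labelled hda-1+atp-2, 0.793 in dve-1+atp-2 and 6.49 in L4440+atp-2, so here the dve-1 side also lay below L4440. The bZIP factor gene zip-8 had 24.5 labelled hda-1+atp-2, was listed at 0 in dve-1+atp-2 and had 0.353 in L4440+atp-2. In ora-1, related to an antigen of the parasite Onchocerca, the values were 103 in the column labelled hda-1+atp-2, 3.57 in dve-1+atp-2 and 1.69 in L4440+atp-2.

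**Figure D2:**
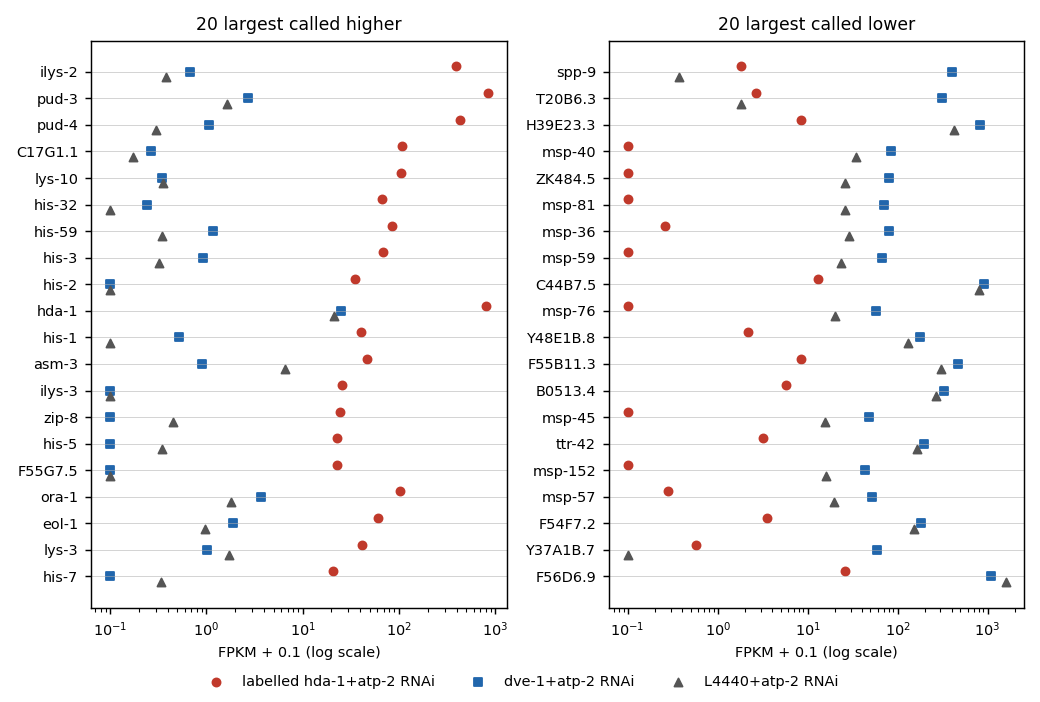
FPKM + 0.1 on a log scale of the 20 protein-coding genes with the largest log2 ratio in each direction, in the column labelled hda-1+atp-2 RNAi (circles), dve-1+atp-2 RNAi (squares) and L4440+atp-2 RNAi (triangles), 1 pooled value each. In the left panel the squares and triangles lie together for most genes and the circles far to the right, from 20.5 for his-7 to 843 for pud-3. In the right panel 8 major sperm protein genes and 12 others have their circles lowest or, for spp-9, T20B6.3 and Y37A1B.7, near the triangles.

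Among the 20 largest in the other direction, 8 were sperm genes and the rest mixed both kinds of departure. spp-9, a saposin-like protein gene, had 1.71 in the column labelled hda-1+atp-2, 408 in dve-1+atp-2 and 0.270 in L4440+atp-2, a log2 ratio of -7.24, and lay far above both other columns on the dve-1 side. T20B6.3, listed in the annotation as idpa-1, likewise had 2.54 in the column labelled hda-1+atp-2, 314 in dve-1+atp-2 and 1.73 in L4440+atp-2. In Y37A1B.7 the dve-1+atp-2 column stood alone, with 0.478 labelled hda-1+atp-2, 58.8 in dve-1+atp-2 and 0 in L4440+atp-2. The opposite case, a loss in the column labelled hda-1+atp-2 from a level that dve-1+atp-2 and L4440+atp-2 shared, was seen in C44B7.5, at 12.9 in the column labelled hda-1+atp-2, 905 in dve-1+atp-2 and 808 in L4440+atp-2. ttr-42, of the transthyretin-related family of secreted proteins, had 3.09 in the column labelled hda-1+atp-2, 199 in dve-1+atp-2 and 163 in L4440+atp-2. The values of F56D6.9 were 26.2 in the column labelled hda-1+atp-2, 1091 in dve-1+atp-2 and 1585 in L4440+atp-2. H39E23.3 had 8.43 in the column labelled hda-1+atp-2, 822 in dve-1+atp-2 and 419.8 in L4440+atp-2, so that L4440+atp-2 lay between the sides.

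The UPRmt genes, the readout that connects both factors in the study, were not 2-fold apart between them. None of the 22 kept members of the list was called, with a median log2 ratio of -0.15 beside 0.02 for all kept genes. Of all kept genes 7.00% were called higher and 6.06% lower, so few calls would be due in a list of this size. hsp-6, the mitochondrial HSP70 and the usual reporter of this response, had an FPKM of 142 in the column labelled hda-1+atp-2, 158 in dve-1+atp-2 and 242 in L4440+atp-2, a log2 ratio of -0.16. The chaperonin hsp-60 had 47.0 in the column labelled hda-1+atp-2, 35.0 in dve-1+atp-2 and 49.3 in L4440+atp-2, a log2 ratio of 0.41. hsp-6 was thus marginally lower and hsp-60 marginally higher in the column labelled hda-1+atp-2, and neither ratio approached 2-fold.

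Seen against L4440+atp-2, a column that both ratios share, all 22 members were lower in the column labelled hda-1+atp-2 (median log2 ratio -0.54) and all 22 were lower in dve-1+atp-2 (median -0.37). The widest ratio between the factors was in gpd-2, a glyceraldehyde-3-phosphate dehydrogenase, at 498 in the column labelled hda-1+atp-2, 965 in dve-1+atp-2 and 1059.7 in L4440+atp-2. The protease genes clpp-1 and ymel-1 followed, with log2 ratios of -0.54 and -0.53. clpp-1, the ClpP peptidase, had 30.5 in the column labelled hda-1+atp-2, 44.9 in dve-1+atp-2 and 47.5 in L4440+atp-2. On these 3 genes the dve-1+atp-2 column stayed close to L4440+atp-2, at 91.1% for gpd-2, 94.6% for clpp-1 and 95.4% for ymel-1 of its level.

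Import and quality control genes lay close together on both sides. timm-23, a channel subunit of the inner membrane, had 84.8 in the column labelled hda-1+atp-2, 101 in dve-1+atp-2 and 165 in L4440+atp-2. phb-1, a prohibitin of the inner membrane, had 143 in the column labelled hda-1+atp-2, 161 in dve-1+atp-2 and 209 in L4440+atp-2. The AAA protease gene spg-7 had 25.4 in the column labelled hda-1+atp-2, 22.9 in dve-1+atp-2 and 30.5 in L4440+atp-2, and the mitochondrial co-chaperone dnj-10 had 18.7 in the column labelled hda-1+atp-2, 22.7 in dve-1+atp-2 and 32.6 in L4440+atp-2. No gene was called among the 15 kept genes of the response's regulators, with log2 ratios of -0.44 to 0.90. atfs-1, the transcription factor that mitochondrial stress sends to the nucleus, had 61.0 in the column labelled hda-1+atp-2, 49.2 in dve-1+atp-2 and 71.0 in L4440+atp-2. ubl-5, a ubiquitin-like partner of DVE-1, had 49.4 in the column labelled hda-1+atp-2, 44.1 in dve-1+atp-2 and 52.8 in L4440+atp-2. haf-1, a mitochondrial peptide exporter, was low everywhere, at 2.95 in the column labelled hda-1+atp-2, 1.57 in dve-1+atp-2 and 3.45 in L4440+atp-2, and had the highest log2 ratio of the 22 UPRmt genes at 0.62. The other UPRmt members ranged between log2 ratios of -0.45 in sod-2 and 0.33 in Y22D7AL.10.

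**Figure D3:**
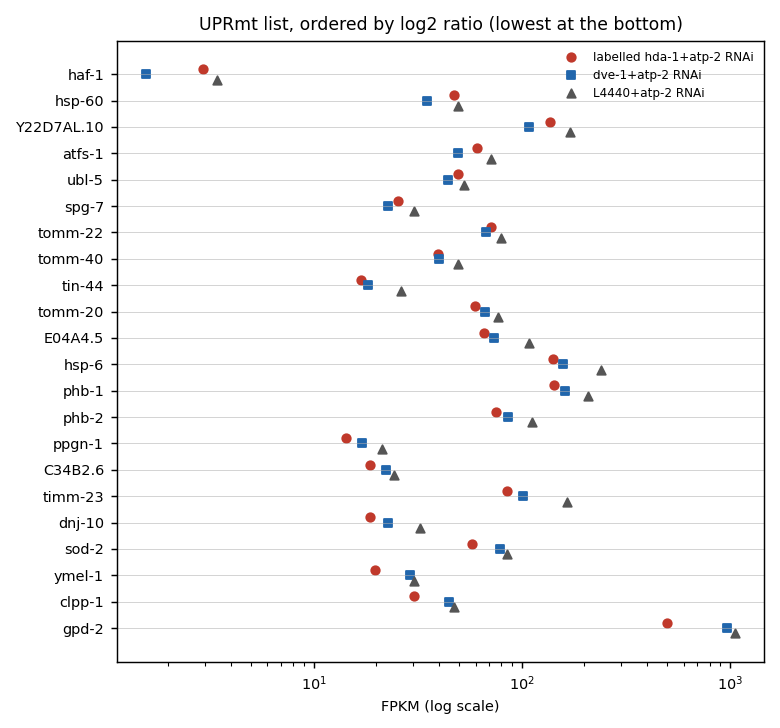
FPKM on a log scale of the 22 kept UPRmt genes, ordered by log2 ratio with the lowest at the bottom, in the column labelled hda-1+atp-2 RNAi (circles), dve-1+atp-2 RNAi (squares) and L4440+atp-2 RNAi (triangles), 1 pooled value each. In every row the triangle lies to the right of both other symbols, and the circle and square change order up the list, from gpd-2 (498 and 965) to haf-1 (2.95 and 1.57).

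The list of genes measured by qPCR under stress had 1 called member of 13, called lower (7.69%, near the 6.06% of all kept genes). cdr-4, a cadmium-responsive glutathione transferase relative, was called lower at 275 in the column labelled hda-1+atp-2, 624 in dve-1+atp-2 and 951 in L4440+atp-2. Of the other 12, log2 ratios ran from -0.64 in the nuclear receptor nhr-115 to 0.41 in hsp-60. cyp-33C8, a cytochrome P450, had 126 in the column labelled hda-1+atp-2, 125 in dve-1+atp-2 and 372 in L4440+atp-2, so the factors were equal at about the same distance below L4440. djr-1.2, a DJ-1 glyoxalase relative, had 3.21 in the column labelled hda-1+atp-2, 2.21 in dve-1+atp-2 and 7.20 in L4440+atp-2. The study picked these genes on these samples, so the list is not independent evidence of its direction.

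In the immunity genes of the study, 2 of 6 kept members were called, 1 higher and 1 lower (16.7% each, beside 7.00% and 6.06% of all kept genes). irg-1, an infection response gene, had 17.1 in the column labelled hda-1+atp-2, 3.37 in dve-1+atp-2 and 17.4 in L4440+atp-2, so the column labelled hda-1+atp-2 matched L4440 and the dve-1 side was low. lys-2, a lysozyme, had 762 in the column labelled hda-1+atp-2, 1592 in dve-1+atp-2 and 1730.3 in L4440+atp-2, with the reverse arrangement. C29F9.3, listed in the annotation as pals-23, had 29.2 in the column labelled hda-1+atp-2, 48.0 in dve-1+atp-2 and 83.8 in L4440+atp-2, and mul-1, a mucin-like gene, had 10.2 in the column labelled hda-1+atp-2, 6.52 in dve-1+atp-2 and 10.9 in L4440+atp-2. Neither C29F9.3 nor mul-1 was called. The study chose this list too. It followed irg-1 and other immune genes after infection with Pseudomonas aeruginosa, where hda-1 or dve-1 RNAi lowered irg-1 induction. The columns here are labelled with atp-2 RNAi and no infection, so the values are not like for like.

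Mitochondrial and housekeeping machinery showed no called gene in several lists, where 7.00% of all kept genes were called higher and 6.06% lower. None was called among 69 mitochondrial ribosomal proteins (median log2 ratio 0.01), 80 cytosolic ribosomal proteins (0.13), 33 proteasome subunits (-0.08), 33 aminoacyl-tRNA synthetases (-0.04) and 12 mitochondrially encoded genes (-0.15). The 20 kept genes of the endoplasmic reticulum stress response also had no call, although 18 of them had a ratio below 0, with a median of -0.41. crt-1, the calreticulin gene, had 624 in the column labelled hda-1+atp-2, 1023 in dve-1+atp-2 and 545 in L4440+atp-2. Of 69 nuclear respiratory chain genes only cyc-2.2, one of a pair of cytochrome c genes, was called, at 0.167 labelled hda-1+atp-2, 19.3 in dve-1+atp-2 and 7.48 in L4440+atp-2.

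Histone genes were mostly higher in the column labelled hda-1+atp-2. Of 73 listed core and variant histone genes 35 were kept. Among these, 25 were called higher and 2 lower, beside 7.00% and 6.06% of all kept genes. The filter takes the mean over the 6 columns, so genes near 0 elsewhere could be kept through the columns labelled hda-1 alone. The share among kept genes is thus no independent evidence. With the filter the median log2 ratio was 2.91, and without it 1.81. With the filter it ranged from 1.68 at a pseudocount of 5 to 4.59 at 0.1. Canonical histone mRNAs of animals lack a poly(A) tail and are made mainly in dividing cells, and their copies are nearly alike. Because only uniquely mapping reads were kept, levels of single histone genes are uncertain and the group is the safer unit. All 25 genes called higher departed from L4440+atp-2 in the column labelled hda-1+atp-2 alone, where the median of the list against L4440+atp-2 was 3.34, against 0.15 for dve-1+atp-2.

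his-32 had an FPKM of 67.0 labelled hda-1+atp-2, 0.144 in dve-1+atp-2 and 0 in L4440+atp-2. It lies 786 bases from lys-10 on chromosome IV. his-59 had 84.1 in the column labelled hda-1+atp-2, 1.09 in dve-1+atp-2 and 0.246 in L4440+atp-2. The genes his-1, his-2 and his-3 form a run on chromosome V, with 236 and 681 bases between neighbours (ce11, V:16042520-16042831, V:16041873-16042283 and V:16040808-16041191). his-3 had 68.7 in the column labelled hda-1+atp-2, 0.827 in dve-1+atp-2 and 0.222 in L4440+atp-2, and his-2 had 35.3 labelled hda-1+atp-2 and was listed at 0 in the other columns with atp-2 RNAi. Of the genes called higher, 8 were listed at 0 in dve-1+atp-2.

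Exceptions and linker histones followed no single direction. his-70 was listed at 0 in the column labelled hda-1+atp-2 and had 8.74 in dve-1+atp-2 and 3.89 in L4440+atp-2. his-41 was called lower, at 70.6 in the column labelled hda-1+atp-2, 149 in dve-1+atp-2 and 129 in L4440+atp-2. Among 6 kept linker (H1) histone genes, hil-3 had 37.7 in the column labelled hda-1+atp-2, 4.63 in dve-1+atp-2 and 4.99 in L4440+atp-2 and his-24 had 37.8 in the column labelled hda-1+atp-2, 11.6 in dve-1+atp-2 and 9.15 in L4440+atp-2, both called higher. hil-1 was called lower at 21.9 in the column labelled hda-1+atp-2, 56.2 in dve-1+atp-2 and 71.5 in L4440+atp-2. None of the 8 kept genes for histone mRNA processing and none of the 44 for cell cycle and DNA replication was called, with medians of 0.24 and 0.20.

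Sperm genes were nearly all lower in the column labelled hda-1+atp-2, and the 2 sides departed from L4440+atp-2 in opposite ways. The list kept 59 genes, of which 54 (91.5%, beside 6.06% of all kept genes) were called lower and none was called higher. It was trimmed of unrelated families after its values were seen, so these shares and medians are no independent evidence. Their median log2 ratio was -4.75, or -2.79 at a pseudocount of 5. Against L4440+atp-2 the list's median was -3.37 in the column labelled hda-1+atp-2 and 1.30 in dve-1+atp-2, and 47 genes departed 2-fold on both sides. Summed over the list, FPKM was 42.1 labelled hda-1+atp-2, 1963 in dve-1+atp-2 and 757 in L4440+atp-2. In whole worms fewer sperm cells and less RNA per cell cannot be told apart.

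The major sperm proteins, which drive the crawling of nematode sperm and signal to oocytes, come from many near-identical genes, so single values are uncertain. msp-40 was listed at 0 in the column labelled hda-1+atp-2, with 84.9 in dve-1+atp-2 and 34.2 in L4440+atp-2. msp-36 had 0.162 in the column labelled hda-1+atp-2, 79.2 in dve-1+atp-2 and 28.5 in L4440+atp-2. In all, 31 of the 59 were listed at 0 in the column labelled hda-1+atp-2, none in dve-1+atp-2 and 1 in L4440+atp-2. In 55 of them dve-1+atp-2 lay above L4440+atp-2 and L4440+atp-2 above the column labelled hda-1+atp-2.

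Among 54 kept genes of RNAi and small RNAs 1 was called higher and 2 (3.7%) lower, fewer than among all kept genes. Those called lower were alg-3 and alg-4, Argonautes of spermatogenesis, and the one called higher was rrf-2, an RNA-dependent RNA polymerase gene, just past the limit with a log2 ratio of 1.01. alg-3 had 0.132 in the column labelled hda-1+atp-2, 5.72 in dve-1+atp-2 and 2.36 in L4440+atp-2, and alg-4 was listed at 0 labelled hda-1+atp-2 with 6.39 in dve-1+atp-2 and 3.05 in L4440+atp-2. Oocyte and early germ line genes differed far less. Of 34 kept, 2 were called, both lower (5.88%, beside 6.06% of all kept genes), and the median was -0.39. These were the eggshell proteoglycan genes cpg-1, at 5.79 in the column labelled hda-1+atp-2, 17.1 in dve-1+atp-2 and 10.1 in L4440+atp-2, and cpg-2, at 12.5 in the column labelled hda-1+atp-2, 31.7 in dve-1+atp-2 and 22.9 in L4440+atp-2. The list's median against L4440+atp-2 was 0.03 labelled hda-1+atp-2 and 0.37 for dve-1+atp-2.

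Somatic markers showed the labelled whole worms. Few muscle and neuronal genes were called. Muscle genes were abundant, with 1 of 27 called (the troponin C gene tnc-2, at 19.0 in the column labelled hda-1+atp-2, 8.60 in dve-1+atp-2 and 10.1 in L4440+atp-2) and a median of 0.13. Neuronal genes had no call among 20, a median of 0.46 and 17 members above 0. The neuronal sum was 867 labelled hda-1+atp-2, 733 in dve-1+atp-2 and 665 in L4440+atp-2. Of 17 intestinal markers 4 (23.5%) were called higher and 1 (5.88%) lower, with a median of 0.47 and 12 ratios above 0. Those called higher were the metallothionein gene mtl-2, given below with its family, the intermediate filament gene ifd-2, at 38.0 in the column labelled hda-1+atp-2, 12.5 in dve-1+atp-2 and 19.2 in L4440+atp-2, the ferritin gene ftn-1, at 165 in the column labelled hda-1+atp-2, 78.2 in dve-1+atp-2 and 133 in L4440+atp-2, and the acid phosphatase gene pho-1, at 35.2 in the column labelled hda-1+atp-2, 16.6 in dve-1+atp-2 and 58.1 in L4440+atp-2. In pho-1 the dve-1 side departed from L4440+atp-2, whereas ftn-1 departed by less than 2-fold on either side. The one called lower was ges-1, the gut esterase, at 62.0 in the column labelled hda-1+atp-2, 139.8 in dve-1+atp-2 and 157 in L4440+atp-2.

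**Figure D4:**
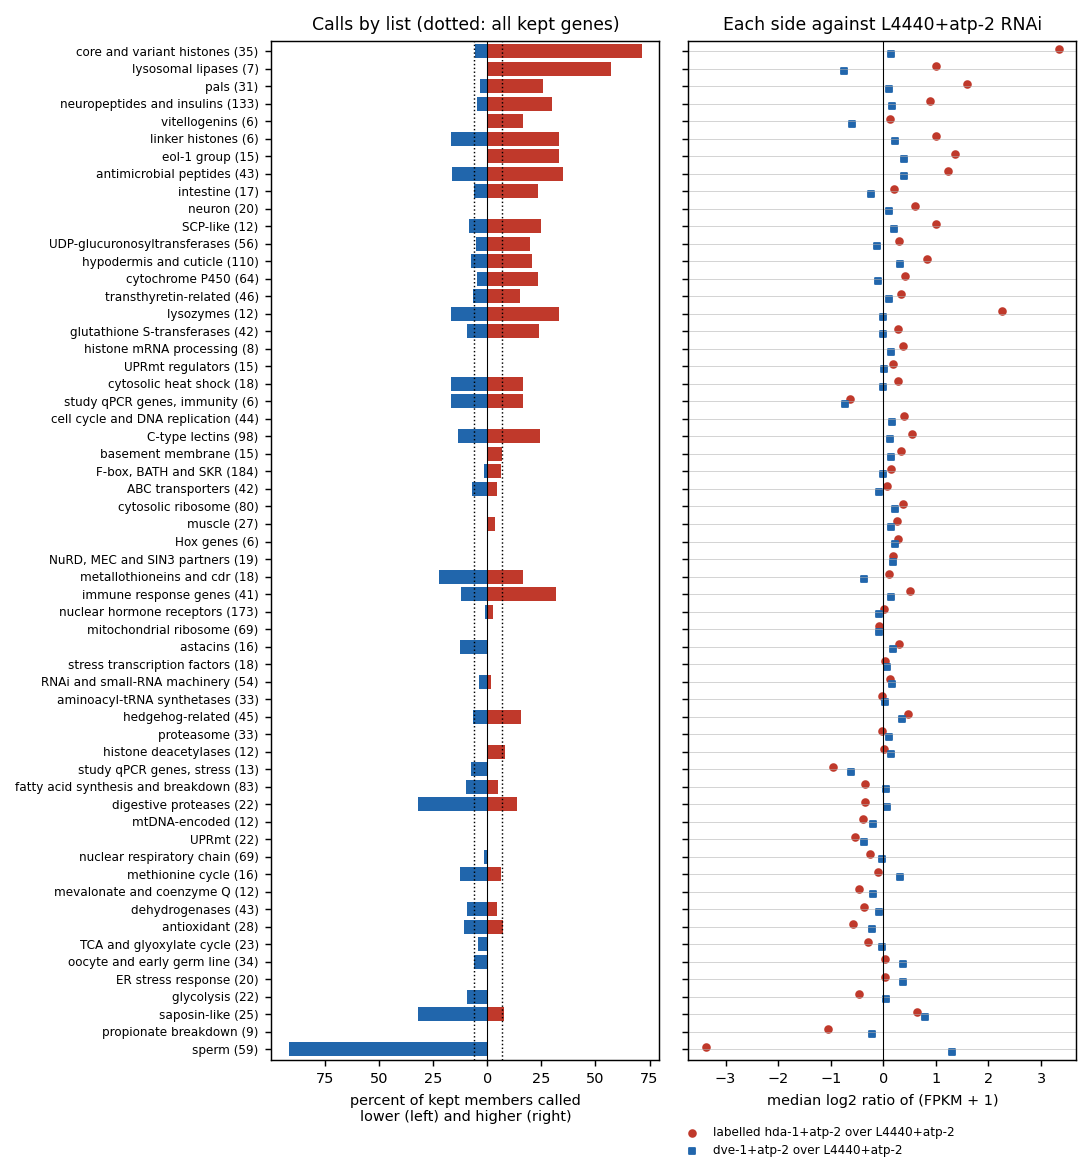
Left, the percent of kept members of each gene list called lower (bars to the left) and higher (bars to the right) in the column labelled hda-1+atp-2 RNAi against dve-1+atp-2 RNAi, with dotted lines at the 6.06% and 7.00% of all kept genes, lists ordered by median log2 ratio and member numbers in brackets. Right, each list's median log2 ratio of (FPKM + 1) to L4440+atp-2 RNAi for the column labelled hda-1+atp-2 (circles) and for dve-1+atp-2 (squares). Histones stand at the top with 25 of 35 called higher, sperm genes at the bottom with 54 of 59 called lower, and lists of fewer than 5 kept members are not drawn.

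Neuropeptide and insulin genes were mostly higher in the column labelled hda-1+atp-2. Of 133 kept, 40 (30.1%) were called higher and 6 (4.51%) lower, beside 7.00% and 6.06% of all kept genes. The share called lower was thus below that of all kept genes. The median was 0.80 and 109 ratios were above 0. Without atp-2 RNAi the median was 0.47, and 20 were called higher and 7 lower, beside 6.97% and 6.85% of all kept genes. Only 17 were called higher in both pairs of columns. In 33 of the 40 only the column labelled hda-1+atp-2 departed from L4440+atp-2. The neuronal markers given above had a median of 0.46 in the same columns, and their part in this result was not tested. The insulin-like peptides, ligands of the receptor DAF-2, included ins-22 at 42.0 in the column labelled hda-1+atp-2, 3.44 in dve-1+atp-2 and 2.56 in L4440+atp-2. ins-7, an intestinal and neuronal insulin, had 66.5 in the column labelled hda-1+atp-2, 12.6 in dve-1+atp-2 and 33.4 in L4440+atp-2. ins-11 had 9.54 labelled hda-1+atp-2 and was listed at 0 in dve-1+atp-2 and in L4440+atp-2. Among peptides called lower, ins-35 had 3.10 in the column labelled hda-1+atp-2, 24.6 in dve-1+atp-2 and 0.497 in L4440+atp-2, raised 2-fold or more on both sides. nlp-1 had 15.2 in the column labelled hda-1+atp-2, 41.6 in dve-1+atp-2 and 9.55 in L4440+atp-2, raised 2-fold or more on the dve-1 side alone.

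Genes for antimicrobial peptides were called in both directions. Of 43 kept antimicrobial peptide genes, 15 (34.9%) were called higher and 7 (16.3%) lower, beside 7.00% and 6.06% of all kept genes. The list shares 8 members with the neuropeptides. nlp-34 had 411 in the column labelled hda-1+atp-2, 14.1 in dve-1+atp-2 and 6.49 in L4440+atp-2, though its exons are under 300 nt and FPKM of such short genes is less certain. The caenacin cnc-6 had 31.6 in the column labelled hda-1+atp-2, 1.09 in dve-1+atp-2 and 0.157 in L4440+atp-2, and the related cnc-2 had 81.1 in the column labelled hda-1+atp-2, 9.75 in dve-1+atp-2 and 3.47 in L4440+atp-2. Against these, abf-1 of the defensin-like antibacterial factors had 0.597 in the column labelled hda-1+atp-2, 35.0 in dve-1+atp-2 and 26.4 in L4440+atp-2 and fipr-26 had 10.5 in the column labelled hda-1+atp-2, 144 in dve-1+atp-2 and 66.2 in L4440+atp-2. For both directions most departures lay in the column labelled hda-1+atp-2, alone in 11 of the 15 and in 6 of the 7.

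Lysosomal and digestive genes divided by family. The saposin-like genes, relatives of pore-forming amoebapores that are made in the gut, had 8 of 25 called lower and 2 higher. Several were raised in dve-1+atp-2 over both other columns. The rise was often shared, since 5 of the 8 departed from L4440+atp-2 the same way on both sides and none in dve-1+atp-2 alone. Beside spp-9, spp-21 had 4.12 in the column labelled hda-1+atp-2, 47.5 in dve-1+atp-2 and 0.335 in L4440+atp-2 and spp-12 had 48.8 in the column labelled hda-1+atp-2, 321 in dve-1+atp-2 and 0.604 in L4440+atp-2. spp-4 had 129 in the column labelled hda-1+atp-2, 746 in dve-1+atp-2 and 42.3 in L4440+atp-2 and spp-2 had 96.5 in the column labelled hda-1+atp-2, 727 in dve-1+atp-2 and 244 in L4440+atp-2. The lysozyme gene lys-6 was of the same kind, at 2.99 in the column labelled hda-1+atp-2, 97.3 in dve-1+atp-2 and 0.163 in L4440+atp-2. spp-1 was called higher with the dve-1 side low, at 136 in the column labelled hda-1+atp-2, 33.3 in dve-1+atp-2 and 257 in L4440+atp-2.

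Of 7 kept lysosomal acid lipase genes, which free fatty acids from stored fat, 4 (57.1%) were called higher and none was lower, at a median of 1.33. The share called higher over all kept genes was 7.00%. lipl-1 had 20.1 in the column labelled hda-1+atp-2, 0.319 in dve-1+atp-2 and 9.45 in L4440+atp-2 and lipl-3 had 6.46 in the column labelled hda-1+atp-2, 0.0919 in dve-1+atp-2 and 1.71 in L4440+atp-2. lipl-2 had 44.0 in the column labelled hda-1+atp-2, 8.79 in dve-1+atp-2 and 21.2 in L4440+atp-2 and lipl-5 had 1123 in the column labelled hda-1+atp-2, 447 in dve-1+atp-2 and 749.7 in L4440+atp-2. In all 4 the L4440+atp-2 level lay between the others, with the dve-1 side the lowest. Their median against L4440+atp-2 was 1.01 labelled hda-1+atp-2 and -0.75 for dve-1+atp-2 over the 7 genes.

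Digestive proteases had 3 of 22 (13.6%) called higher, all cysteine proteases, and 7 (31.8%) lower, beside 7.00% and 6.06% of all kept genes. cpr-4, a cathepsin B relative, had 3297 in the column labelled hda-1+atp-2, 213 in dve-1+atp-2 and 175 in L4440+atp-2. The cathepsin L gene cpl-1 had 3170.0 in the column labelled hda-1+atp-2, 698 in dve-1+atp-2 and 2333 in L4440+atp-2, so there the dve-1 side departed. cpz-1, a cathepsin Z, had 865 in the column labelled hda-1+atp-2, 336 in dve-1+atp-2 and 362 in L4440+atp-2. On the lower side asp-12, an aspartyl protease, had 10.2 in the column labelled hda-1+atp-2, 201 in dve-1+atp-2 and 26.6 in L4440+atp-2 and cpr-3 had 112 in the column labelled hda-1+atp-2, 660.3 in dve-1+atp-2 and 137 in L4440+atp-2, both raised in dve-1+atp-2. asp-10, listed in the annotation as hrg-7, had 96.2 in the column labelled hda-1+atp-2, 419 in dve-1+atp-2 and 383 in L4440+atp-2.

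C-type lectins, secreted carbohydrate-binding proteins of the gut and epidermis, were called in numbers on both sides, with 24 of 98 (24.5%) higher and 13 (13.3%) lower. For all kept genes the shares were 7.00% and 6.06%. clec-80 had 72.0 in the column labelled hda-1+atp-2, 2.62 in dve-1+atp-2 and 17.4 in L4440+atp-2, and clec-48 had 368 in the column labelled hda-1+atp-2, 55.9 in dve-1+atp-2 and 118 in L4440+atp-2. The lowest were clec-222, at 0.987 in the column labelled hda-1+atp-2, 37.9 in dve-1+atp-2 and 31.7 in L4440+atp-2, and clec-97, at 0.385 in the column labelled hda-1+atp-2, 23.9 in dve-1+atp-2 and 25.3 in L4440+atp-2. In clec-80 and clec-48 L4440+atp-2 lay between the sides, and in clec-222 and clec-97 it sat with dve-1+atp-2. Of 41 kept immune response genes 13 (31.7%) were called higher and 5 (12.2%) lower. F55G11.4 had 508 in the column labelled hda-1+atp-2, 109.5 in dve-1+atp-2 and 87.3 in L4440+atp-2, dod-21 had 42.0 in the column labelled hda-1+atp-2, 225 in dve-1+atp-2 and 47.4 in L4440+atp-2, and C32H11.9, listed in the annotation as cld-1, had 29.2 in the column labelled hda-1+atp-2, 359.9 in dve-1+atp-2 and 42.6 in L4440+atp-2. In that list 3 of the 13 higher calls were short or noncoding transcripts, which are not read further.

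3 detoxification families held more genes called higher than lower, whereas ABC transporters (2 higher and 3 lower of 42) and short-chain and aldehyde dehydrogenases (2 higher and 4 lower of 43) did not. The shares were 4.76% and 7.14% for ABC transporters and 4.65% and 9.30% for dehydrogenases, beside 7.00% and 6.06% of all kept genes. Cytochrome P450 genes, the oxidising enzymes of the first phase, had 15 of 64 (23.4%, beside 7.00% of all kept genes) called higher and 3 lower, but 3 each where the higher column had to reach an FPKM of 20. cyp-35B2 had 14.4 in the column labelled hda-1+atp-2, 0.108 in dve-1+atp-2 and 1.30 in L4440+atp-2, and cyp-37B1 had 24.3 in the column labelled hda-1+atp-2, 2.43 in dve-1+atp-2 and 18.9 in L4440+atp-2. The lower ones were cyp-25A2, at 18.0 in the column labelled hda-1+atp-2, 109 in dve-1+atp-2 and 107 in L4440+atp-2, cyp-25A1, at 11.1 in the column labelled hda-1+atp-2, 47.0 in dve-1+atp-2 and 93.0 in L4440+atp-2, and cyp-34A9. Glutathione S-transferases gave 10 (23.8%) higher and 4 (9.52%) lower of 42. gst-38 had 66.5 in the column labelled hda-1+atp-2, 10.8 in dve-1+atp-2 and 63.5 in L4440+atp-2, a loss on the dve-1 side, whereas gst-33 had 25.6 in the column labelled hda-1+atp-2, 1.06 in dve-1+atp-2 and 1.13 in L4440+atp-2, a gain on the other. gst-39 had 153 in the column labelled hda-1+atp-2, 1122 in dve-1+atp-2 and 165 in L4440+atp-2, a gain on the dve-1 side. UDP-glucuronosyltransferases, which add a sugar to lipophilic compounds, had 11 of 56 (19.6%) called higher and 3 (5.36%) lower, the latter share below that of all kept genes. The largest ratio called higher was that of ugt-31, at 21.4 in the column labelled hda-1+atp-2, 2.04 in dve-1+atp-2 and 4.17 in L4440+atp-2. In the lower direction it was that of ugt-63, at 13.7 in the column labelled hda-1+atp-2, 75.9 in dve-1+atp-2 and 37.4 in L4440+atp-2.

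Metal and oxidant defence genes split within families. The metallothionein mtl-2 had 1338 in the column labelled hda-1+atp-2, 146 in dve-1+atp-2 and 473 in L4440+atp-2, called higher, and mtl-1 had 95.9 in the column labelled hda-1+atp-2, 703 in dve-1+atp-2 and 1078 in L4440+atp-2, called lower. The genes of these small metal-binding proteins thus differed between the columns in opposite directions. sod-3, a mitochondrial manganese superoxide dismutase, had 29.5 in the column labelled hda-1+atp-2, 195 in dve-1+atp-2 and 288 in L4440+atp-2, and the cytosolic sod-1 had 286 in the column labelled hda-1+atp-2, 719.7 in dve-1+atp-2 and 636 in L4440+atp-2. The thioredoxin gene trx-1 had 9.66 in the column labelled hda-1+atp-2, 0.364 in dve-1+atp-2 and 0.358 in L4440+atp-2, and trx-3 had 12.5 in the column labelled hda-1+atp-2, 1.43 in dve-1+atp-2 and 1.29 in L4440+atp-2, both called higher. gcs-1, the first enzyme of glutathione synthesis, was just past the limit at 39.9 in the column labelled hda-1+atp-2, 81.7 in dve-1+atp-2 and 66.5 in L4440+atp-2. In mtl-1 and the sod genes it was the column labelled hda-1+atp-2 that departed from the L4440+atp-2 level.

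Small heat shock genes did the same. hsp-16.41 had 151 in the column labelled hda-1+atp-2, 28.6 in dve-1+atp-2 and 36.0 in L4440+atp-2 and hsp-16.2 had 140.4 in the column labelled hda-1+atp-2, 30.2 in dve-1+atp-2 and 47.3 in L4440+atp-2, both heat-inducible alpha-crystallin relatives. hsp-43, a larger member, had 464 in the column labelled hda-1+atp-2, 183 in dve-1+atp-2 and 152 in L4440+atp-2. Against these, sip-1 had 67.3 in the column labelled hda-1+atp-2, 399 in dve-1+atp-2 and 386 in L4440+atp-2, hsp-12.6 had 5.67 in the column labelled hda-1+atp-2, 26.1 in dve-1+atp-2 and 47.7 in L4440+atp-2 and hsp-12.3 had 28.9 in the column labelled hda-1+atp-2, 85.5 in dve-1+atp-2 and 93.5 in L4440+atp-2. All 6 departed from L4440+atp-2 in the column labelled hda-1+atp-2 alone. None of the other 12 kept members of the cytosolic list was called.

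Collagen and cuticle genes numbered 110, with 23 (20.9%) called higher, 8 (7.27%) called lower and a median of 0.37. The share called lower was near the 6.06% of all kept genes. col-12 had 102 in the column labelled hda-1+atp-2, 4.78 in dve-1+atp-2 and 2.44 in L4440+atp-2, and col-104 had 21.5 in the column labelled hda-1+atp-2, 3.03 in dve-1+atp-2 and 1.14 in L4440+atp-2. dpy-17, whose loss shortens the body, had 2.08 in the column labelled hda-1+atp-2, 16.7 in dve-1+atp-2 and 2.53 in L4440+atp-2, and col-107 had 50.3 in the column labelled hda-1+atp-2, 179.6 in dve-1+atp-2 and 4.03 in L4440+atp-2. Of the 23 higher, 16 departed in the column labelled hda-1+atp-2 alone and none in dve-1+atp-2 alone. None of the 8 lower departed in the column labelled hda-1+atp-2 alone. Hedgehog-related genes gave 7 (15.6%) higher and 3 (6.67%) lower of 45. grl-15 had 2.16 in the column labelled hda-1+atp-2, 59.2 in dve-1+atp-2 and 2.06 in L4440+atp-2 and wrt-1 had 0.818 in the column labelled hda-1+atp-2, 21.3 in dve-1+atp-2 and 1.05 in L4440+atp-2, raised on the dve-1 side, while grd-4 had 19.4 in the column labelled hda-1+atp-2, 0.324 in dve-1+atp-2 and 21.3 in L4440+atp-2, lost there.

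Lipid and carbon metabolism held few calls. Of 83 kept fatty acid genes 8 (9.64%) were called lower and 4 (4.82%) higher, near the shares of all kept genes. fasn-1, the fatty acid synthase, had 37.4 in the column labelled hda-1+atp-2, 111 in dve-1+atp-2 and 85.2 in L4440+atp-2, while fat-7, a stearoyl-CoA desaturase, had 224 in the column labelled hda-1+atp-2, 30.2 in dve-1+atp-2 and 6.55 in L4440+atp-2 and was raised on both sides over L4440+atp-2. acox-5, a peroxisomal acyl-CoA oxidase, had 37.1 in the column labelled hda-1+atp-2, 136 in dve-1+atp-2 and 79.0 in L4440+atp-2. In glycolysis and gluconeogenesis 21 of 22 ratios were below 0, with pck-1 at 428 in the column labelled hda-1+atp-2, 933 in dve-1+atp-2 and 907 in L4440+atp-2 and hxk-1 at 25.4 in the column labelled hda-1+atp-2, 57.3 in dve-1+atp-2 and 55.6 in L4440+atp-2 called lower. icl-1, the glyoxylate cycle enzyme, had 529 in the column labelled hda-1+atp-2, 1062 in dve-1+atp-2 and 692 in L4440+atp-2, just past the limit. The 9 propionate breakdown genes all had ratios below 0 with none called, a median of -0.52, and acdh-1, the first step, at 201 in the column labelled hda-1+atp-2, 385 in dve-1+atp-2 and 984 in L4440+atp-2. Yolk protein genes had ratios above 0 in 6 of 6, but only vit-5 was called, at 6769 in the column labelled hda-1+atp-2, 3004 in dve-1+atp-2 and 5415 in L4440+atp-2.

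The pals genes are a nematode family that is switched on with eol-1 in response to intracellular pathogens. They were called higher in 8 of 31 kept members (25.8%, beside 7.00% of all kept genes) and lower in 1 (3.23%, beside 6.06%), with a median of 0.99. These levels are low, and with an FPKM of 20 required in the higher column 1 was called higher and 1 lower, while a pseudocount of 5 gave a median of 0.37. eol-1, related to the RNA-decapping enzyme DXO, had 60.9 in the column labelled hda-1+atp-2, 1.78 in dve-1+atp-2 and 0.871 in L4440+atp-2. B0507.10, listed in the annotation as ddn-1, had 36.9 in the column labelled hda-1+atp-2, 2.29 in dve-1+atp-2 and 0.981 in L4440+atp-2, and its neighbour B0507.8, which is 105 bases away on chromosome V, had 25.1 in the column labelled hda-1+atp-2, 1.71 in dve-1+atp-2 and 0.277 in L4440+atp-2. dct-3, listed as pals-39, had 15.5 in the column labelled hda-1+atp-2, 0.890 in dve-1+atp-2 and 1.78 in L4440+atp-2. These genes were low in dve-1+atp-2 and in L4440+atp-2 alike. The eol-1 list was chosen from earlier results of these data, as genes lowered by atp-2 RNAi with dve-1 RNAi. For its members a low dve-1+atp-2 value was thus set in advance. Of the pals ratios 26 were above 0 and 5 below. Below 0 were C29F9.3 (pals-23), given above, and C29F9.4 (pals-24), at 25.9 in the column labelled hda-1+atp-2, 37.5 in dve-1+atp-2 and 54.4 in L4440+atp-2. C17H1.7, listed as pals-6, was the one called lower, at 16.1 in the column labelled hda-1+atp-2, 38.2 in dve-1+atp-2 and 12.4 in L4440+atp-2.

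The same ratio in the columns without atp-2 RNAi rests on other libraries of the same knockdowns. Of the 934 genes called higher with atp-2 RNAi, 873 (93.5%) had a ratio above 0 without it, where 45.6% of all kept genes did, and 652 (69.8%) were also called higher there. Of the 808 called lower, 764 (94.6%) had a ratio below 0, where 53.7% of all kept genes did, and 657 (81.3%) were called lower. Without atp-2 RNAi 930 genes (6.97%) were called higher and 913 (6.85%) lower in all, so the shared genes were 70.1% and 72.0% of those lists. The leading genes had the same direction there. ilys-2 had 454 labelled hda-1 and 0.318 in dve-1 RNAi, and spp-9 had 2.68 labelled hda-1 and 2266 in dve-1 RNAi. Histones had a median log2 ratio of 3.02 there and sperm genes -4.90.

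**Figure D5:**
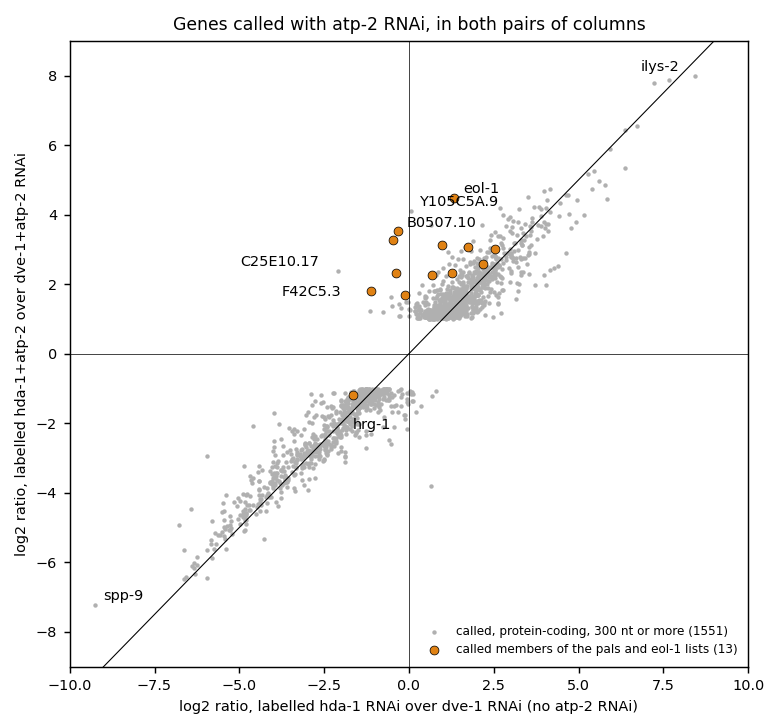
Log2 ratio of (FPKM + 1) labelled hda-1+atp-2 over dve-1+atp-2 RNAi on the vertical axis against the same ratio without atp-2 RNAi on the horizontal axis, for the 1551 called protein-coding genes with 300 nt of exon or more, 1 pooled value per column. Most points follow the solid line of equal ratios. The 13 called members of the pals and eol-1 lists (large points) include several above 1.5 on the vertical axis and near or below 0 on the horizontal one, such as B0507.10 at 3.53 and -0.34. The eol-1 list was chosen with earlier results of these data known.

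In the pals and eol-1 lists the 2 pairs of columns parted. eol-1 had a log2 ratio of 4.48 with atp-2 RNAi and 1.32 without it, where its FPKM was 86.2 labelled hda-1, 34.0 in dve-1 RNAi and 0.855 in L4440. B0507.10 had 57.0 labelled hda-1, 72.3 in dve-1 RNAi and 0.911 in L4440, so that both knockdowns were high there. Without atp-2 RNAi B0507.8 had 41.7 labelled hda-1 and 58.4 in dve-1 RNAi. The difference with atp-2 RNAi thus came with a low dve-1+atp-2 column. Over the 31 pals genes the median ratio was 0.99 with and 0.17 without atp-2 RNAi, and over the 15 genes of the eol-1 list 0.75 and -0.20. The eol-1 list was chosen from earlier results of these data, as genes lowered by atp-2 RNAi with dve-1 RNAi. The direction of its shift was thus set in advance and is no independent evidence. Whether the ratio itself changed with atp-2 RNAi could not be tested, since each column holds 1 value.

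A wider look, limited to protein-coding genes with at least 300 nt of exon, found 24 called higher and 21 called lower with atp-2 RNAi whose ratio without it lay within 0.3 of 0. The largest was Y105C5A.9, which had 16.2 labelled hda-1+atp-2 and was listed at 0 in dve-1+atp-2 and L4440+atp-2, but had 32.8 labelled hda-1 and 31.8 in dve-1 RNAi. In the lower direction hrg-1, a haem transporter, had 34.4 in the column labelled hda-1+atp-2, 118 in dve-1+atp-2 and 73.7 in L4440+atp-2, and without atp-2 RNAi 49.2 labelled hda-1 and 55.1 in dve-1 RNAi. B0284.1, listed in the annotation as pals-26, had 23.5 in the column labelled hda-1+atp-2, 6.60 in dve-1+atp-2 and 2.67 in L4440+atp-2, and without atp-2 RNAi 33.2 labelled hda-1 and 36.0 in dve-1 RNAi. T22D1.17, named after its values were seen, had 1.90 in the column labelled hda-1+atp-2, 39.7 in dve-1+atp-2 and 1.39 in L4440+atp-2, yet 2.07 labelled hda-1 and 0.965 in dve-1 RNAi. In T22D1.17 the high value was that of dve-1+atp-2 alone. In hrg-1 L4440+atp-2 lay between the sides, and only the column labelled hda-1+atp-2 was 2-fold or more from it. Without atp-2 RNAi hrg-1 had 71.2 in L4440.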

How the data were processed

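The authors aligned reads with TopHat2 2.1.1 to the ce11 genome, kept uniquely mapping reads and ran Cufflinks, and the deposited FPKM table holds 1 value per gene and group, both libraries combined. Total RNA came from whole worms by Trizol and was read on a HiSeq2500. Strandedness is not stated, so overlapping and antisense genes cannot be told apart. Groups were taken from the labels and all 6 columns of the table were used. Columns of other series numbered 0.

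Of the listed genes, 45990 matched Ensembl release 115 by identifier and 210 had no symbol. A pseudocount of 1 was added to FPKM, which understates the ratios of low genes. Genes with a mean of 1 or more were kept. Calls needed 2-fold and an FPKM of 5 in the higher column, and a side departed when it was 2-fold from L4440+atp-2 RNAi. With 1 value per group no test was possible, and the deposited FPKM allow no count model. Calculations used Python 3.11.15, numpy 2.4.6 and pandas 2.3.3 and were tested on simulated data.

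Named genes were the RNAi targets, the UPRmt and qPCR lists, the 20 protein-coding genes of 300 nt of exon or more with the largest ratio in each direction, and up to 8 called members per direction and 3 members not called of each list described. Named outside this rule, after its values were seen, was T22D1.17, together with genes whose ratio differed between the columns with and without atp-2 RNAi. The comparison, the gene lists and the thresholds were chosen with earlier results of these data known, and the sperm list was trimmed of unrelated families after its values were seen. The alternatives tried were other pseudocounts, filters, scalings, folds and minimum levels. Sequences were not used here.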

Additional observations from a re-analysis of the deposited data

Results flagged for a closer look

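For 3 protein-coding genes with 300 nt of exon or more, the columns with and without atp-2 RNAi were called in opposite directions, and this difference was not tested because each column holds 1 value. C25E10.17 had an FPKM of 5.50 in the column labelled hda-1+atp-2 and 0.253 in dve-1+atp-2, but 1.55 labelled hda-1 and 9.95 in dve-1 RNAi, a change of the log2 ratio of 4.477. F42C5.3 had 10.5 labelled hda-1+atp-2 and 2.30 in dve-1+atp-2, but 19.8 labelled hda-1 and 43.9 in dve-1 RNAi, a change of 2.914. M199.9 had 8.77 labelled hda-1+atp-2 and 3.17 in dve-1+atp-2, but 4.34 labelled hda-1 and 10.8 in dve-1 RNAi, a change of 2.369. Levels of all 3 were low in L4440, from 0.538 to 2.42 with atp-2 RNAi and from 0 to 1.98 without it. Over all kept genes, 10 called higher and 3 called lower with atp-2 RNAi were called the other way without it. The shorter K08D8.11 is one of them, at 581 labelled hda-1+atp-2 and 0 in dve-1+atp-2, but 0 labelled hda-1 and 543 in dve-1 RNAi, and FPKM of such short genes is less certain.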

How the results depend on the processing

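The main counts were 934 genes higher and 808 lower. A pseudocount of 5 left 581 higher and 629 lower, a 4-fold limit 364 and 455, a 1.5-fold limit 1644 and 1340, and a minimum FPKM of 20 in the higher column 368 and 411. Higher calls were then 48.0% of all calls with the pseudocount of 5, 44.4% at 4-fold and 47.2% at the FPKM of 20, beside 53.6%, so that lower calls outnumbered higher ones there, and the cause was not tested. The counts stayed within 1.5 times under the other alternatives, from 625 to 1044 higher and from 605 to 854 lower, including the one added after seeing the data, which left out the sperm and core histone lists (909 higher, 752 lower). Scalings moved the median log2 ratio to between -0.00 and 0.05 and the share of higher among called genes to between 51.6% and 55.5%, beside 53.6%. List medians moved with the pseudocount, between 4.59 (0.1) and 1.68 (5) for histones, -6.98 and -2.79 for sperm genes and 1.53 and 0.37 for pals, and without the filter on the mean the histone median was 1.81 and that of pals 0.63. List counts fell most at an FPKM of 20, to 20 higher of the neuropeptides, 12 of the cuticle genes, 10 of the C-type lectins, 3 of the cytochrome P450 genes and 1 of the pals genes. No ratio of a named gene past 2-fold changed sign, but a pseudocount cannot change a sign and the scalings moved ratios too little to do so. Ratios of 186 named genes moved by more than their counting error at a pseudocount of 5, and 318 did not. At a pseudocount of 0.1 these were 88 and 416. Median-of-ratios scaling moved 56 and upper-quartile scaling 67. No paired analysis was possible because the deposited values combine both libraries of a group, and for the same reason no library could be left out. Depth limits genes under an FPKM of 5, for which a 2-fold ratio rests on few fragments.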

Other observations

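Of the called genes, 675 of the 934 higher (72.3%) and 635 of the 808 lower (78.6%) were in no list, beside 83.6% of all kept genes. F-box, BATH and SKR genes, which feed proteins to ubiquitin ligases, had 12 of 184 kept members called higher (6.52%) and 3 lower (1.63%), beside 7.00% and 6.06% of all kept genes. Nuclear hormone receptors had 5 of 173 (2.89%) called higher and 2 (1.16%) lower, both below the shares of all kept genes. Transthyretin-related genes had 7 of 46 (15.2%) called higher and 3 (6.52%) lower. Among the astacin proteases 2 of 16 (12.5%) were called lower and none higher. The Hox genes had no call among 6, with a median log2 ratio of 0.09.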
